A study of Mus musculus with 17 samples.

Results

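The mitochondrial genome is a circle of 16299 bases on the mouse reference build GRCm39, and it carries 37 genes of its own. They were taken by symbol alone, as the genes whose symbol starts with mt-, and they are 37 of the 55357 genes in the deposited tables. 13 of them encode proteins, 2 encode the RNAs of the mitochondrial ribosome and 22 encode transfer RNAs. 28 of the genes lie on the forward strand of the reference and 9 on the reverse strand, namely *mt-Nd6* and 8 tRNA genes.

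As background, both strands of this genome are transcribed as long precursors, from which the tRNAs are cut out so that the mRNAs and rRNAs between them are released. All the proteins it encodes are subunits of the respiratory chain or of ATP synthase and sit in the inner membrane beside many subunits encoded in the nucleus. In β cells, ATP made by this machinery closes potassium channels when glucose is high, which starts insulin release.

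The study asked how β cells adapt to sustained high glucose and what the RNA-binding protein PCBP2 contributes. β cells marked with tdTomato were sorted from islets of male mice after 3 days (72 hours) at 2.8 or 16.7 mM glucose, and their polyA RNA was sequenced. Control cells, labelled WT, came from RIP-Cre mice with the Cre-activated *Rosa26* tdTomato reporter. Knockout cells, *Pcbp2* βKO, came from RIPCre+;Pcbp2Fl/Fl;Tdtomato mice, in which Cre under the rat insulin promoter deletes the floxed stretch of *Pcbp2*. The groups hold 3 control samples at 2.8 mM, 4 control samples at 16.7 mM, and 5 knockout samples at each concentration. Only male mice, only cells in which the insulin promoter had driven Cre at some time and only sorted cells that survived culture and dispersion were measured, and the ages of the mice are not given for these samples. The labels do not say that samples came from separate animals, so the p-values measure the spread between these samples.

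The depth was 78719001, 70712840 and 78152840 estimated counts in the control samples at 2.8 mM and 65070242, 69073048, 69201359 and 67542798 at 16.7 mM. In knockout samples it was 75742629, 72046583, 73279801, 47385513 and 82419400 at 2.8 mM and 73897850, 73336033, 77964405, 79509620 and 81769111 at 16.7 mM. Knockout replicate 4 at 2.8 mM is the shallowest library. Levels below are CPM (the count divided by the library's total, times 1e6) scaled with TMM factors, which set the libraries so that most genes do not change, unless TPM, which also divides by transcript length, is named.

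*Pcbp2*, the deleted gene, stood at 63.4, 73.4 and 50.7 CPM in control cells at 2.8 mM and at 35.0, 45.4, 44.4 and 36.7 CPM at 16.7 mM. In knockout cells it stood at 19.2, 17.5, 16.8, 15.5 and 18.2 CPM at 2.8 mM and at 10.0, 5.81, 6.40, 8.48 and 7.60 CPM at 16.7 mM. Every knockout sample lay below every control sample, so the values match the labels, though transcript from the locus was still counted. With the quasi-likelihood test of edgeR, adjusted by Benjamini-Hochberg over 22784 genes, *Pcbp2* fell in knockout cells by a log2 fold change of -1.84 ± 0.17 (SE) at 2.8 mM (adjusted p = 3.61e-06, lower in 5 of 5 samples). At 16.7 mM its log2 fold change was -2.40 ± 0.16 (edgeR adjusted p = 7.55e-08, lower in 5 of 5 samples). Glucose lowered it as well, with log2 fold changes of -0.63 ± 0.18 in control cells (edgeR adjusted p = 0.0208, 4 of 4 samples) and -1.19 ± 0.15 in knockout cells (adjusted p = 2.26e-05, 5 of 5 samples), and the interaction was -0.56 (adjusted p = 1.000).

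The insulin genes *Ins1* and *Ins2* fill a large part of these libraries. On average they held 10.2% of counts in control cells at 2.8 mM and 27.1% at 16.7 mM, against 6.76% and 28.3% in knockout cells. With glucose *Ins1* rose by a log2 fold change of 2.75 in control cells (edgeR adjusted p = 0.000114, 4 of 4 samples) and 5.53 in knockout cells (adjusted p = 2.3e-09, 5 of 5). *Ins2* rose by 1.66 (edgeR adjusted p = 0.00108, 4 of 4) and 2.29 (adjusted p = 3.33e-06, 5 of 5) on the same log2 scale. Between genotypes at 2.8 mM, *Ins1* was lower in knockout cells by a log2 fold change of -3.04 (edgeR adjusted p = 2.32e-06, above the control mean in 0 of 5 samples) and *Ins2* differed by -0.55 (adjusted p = 0.335). At 16.7 mM the genotypes differed by -0.27 for *Ins1* (edgeR adjusted p = 0.756) and 0.08 for *Ins2* (adjusted p = 0.941). The interaction was 2.78 for *Ins1* (edgeR adjusted p = 0.00902) and 0.64 for *Ins2* (adjusted p = 1.000). The interaction of *Ins1* is not called without control replicate 3 at 2.8 mM or with limma on log2(TPM + 1), where 0 genes are called.

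β cell markers were present in every library, and 6 of 9 rose with glucose in control cells and 8 of 9 in knockout cells, where 7.15% and 13.4% of all genes were called higher. Markers of other islet cells were counted too and differed between samples. The 4 α cell markers, led by *Gcg*, summed to 678, 2601 and 1412 CPM in control cells at 2.8 mM and 1209, 1107, 530.1 and 1557 CPM at 16.7 mM. In knockout cells they summed to 1549, 6596, 2067, 9404 and 5413 CPM at 2.8 mM and 1441, 1788, 950.2, 1135 and 1430.4 CPM at 16.7 mM. Knockout replicates 2, 4 and 5 at 2.8 mM are above all other samples. The PP cell marker *Ppy* stood at 797, 835 and 825 CPM in control cells at 2.8 mM and at 318, 294, 224 and 631 CPM at 16.7 mM. It stood at 992, 1619, 1534, 2708 and 5112 CPM in knockout cells at 2.8 mM and at 383, 505, 290.3, 833 and 1142 CPM at 16.7 mM, highest in replicates 4 and 5 at 2.8 mM. The 2 δ cell markers, led by *Sst*, summed to 232, 78.2 and 276 CPM and 199, 102, 165 and 231 CPM in control cells at 2.8 and 16.7 mM, and to 316, 112, 623, 902 and 945 CPM and 267, 73.1, 276, 315 and 305 CPM in knockout cells. The δ sum was highest in knockout replicates 3, 4 and 5 at 2.8 mM. Ductal markers (4 genes, led by *Krt7*) summed to 384 to 1183 CPM and macrophage markers (4 genes, led by *C1qa*) to 21.1 to 164 CPM, while the sums of acinar, endothelial and stellate markers reached at most 0.327, 1.14 and 0.954 CPM. With glucose in knockout cells, 2 of 4 α cell markers, 1 of 2 δ cell markers, *Ppy* (-1.92, edgeR adjusted p = 0.00237) and 3 of 4 macrophage markers were called lower, and 1 α cell and 1 macrophage marker higher, beside 10.4% and 13.4% of all genes. In control cells 1 α cell marker was called higher and no α, δ, PP or macrophage marker lower, beside 7.15% and 6.69% of all genes. Between genotypes at 2.8 mM, 1 macrophage marker and 2 of 9 β cell markers were called lower in knockout cells, beside 1.78% of all genes called lower and 0.255% higher. No gene of these lists was at 0 in every sample, and the part of other cells' RNA in the results below was not tested. In bulk RNA, fewer cells of a type and less RNA per cell cannot be told apart.

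29 of the 37 mitochondrial genes had enough counts to be tested, namely the 13 mRNAs, both rRNAs and 14 tRNAs. The other 8 tRNAs (*mt-Tw*, *mt-Td*, *mt-Tk*, *mt-Tr*, *mt-Th*, *mt-Ts2*, *mt-Tl2* and *mt-Tt*) had mean counts of 2 to 6.35 per sample. A gene is called here at an adjusted p under 0.05 with a fold change over 1.5. In knockout cells, glucose raised 9 mitochondrial genes and lowered 1, where 13.4% of all genes tested were called higher and 10.4% lower. In control cells, glucose raised 1 and lowered 0, where 7.15% of all genes were called higher and 6.69% lower. Leaving out single libraries moved these all-gene calls. They were 689 higher and 693 lower of 23890 genes without control replicate 2 at 2.8 mM. Without control replicate 4 at 16.7 mM they were 2217 and 2263 of 22680. 3 of the 29 had an unadjusted p under 0.05 in control cells and 14 in knockout cells, against 29.3% and 39.7% of all genes. Control samples at 2.8 and 16.7 mM share replicate numbers, which were taken as pairs, though the labels do not say that they are. With the number as a block, 3 mitochondrial genes were called higher and 1 lower, where 10.4% of all genes were called higher and 11.7% lower. Control replicate 4 at 16.7 mM has no partner and does not weigh on that fit, so the effect of pairing cannot be told apart from the loss of this library. The genotypes differed in no mitochondrial gene by edgeR's test, at 2.8 mM, where 0.255% of all genes were called higher and 1.78% lower, or at 16.7 mM, where 0.29% were called higher and 1.42% lower. At an unadjusted p under 0.05 there were 3 such genes of 29 at 2.8 mM and 0 at 16.7 mM, beside 12.9% and 12.1% of all genes. DESeq2 called 0 at both concentrations, beside 835 of 22784 genes at 2.8 mM and 726 at 16.7 mM. Limma also called 0, beside 283 and 190 of these genes on log2(TPM + 1) and 328 and 299 on log2(TPM + 0.1). The interaction between genotype and glucose was called for 0 mitochondrial genes and for 0.00439% of all genes, with 2 of the 29 and 4.57% of all genes at an unadjusted p under 0.05. DESeq2 and limma also called it for 0 mitochondrial genes. Of 22784 genes, DESeq2 called 34, and limma called 0 on log2(TPM + 1) and 3 on log2(TPM + 0.1). A call in knockout cells that is missing in control cells is therefore not shown to differ between the genotypes.

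The split between higher and lower depends on the scale, and insulin takes a larger share of counts at 16.7 mM. Scaled to total counts, the median log2 fold change of all genes with glucose moves to -0.35 in control cells (782 genes higher and 4055 lower, against 1629 genes higher and 1524 lower with TMM) and to -0.47 in knockout cells (1482 genes higher and 6369 lower, against 3056 genes higher and 2375 lower). The mitochondrial calls then become 0 higher and 3 lower in control cells and 1 higher and 7 lower in knockout cells. On log2(TPM + 1) with limma, the all-gene median is -0.24 in control cells (250 genes higher and 6725 lower) and -0.33 in knockout cells (345 genes higher and 8486 lower). Mitochondrial calls on that scale are 0 higher and 11 lower in each genotype. With TPM + 0.1 the medians are -0.56 (442 genes higher and 8460 lower) and -0.71 (656 genes higher and 11793 lower), again with 0 higher and 11 lower mitochondrial genes in each genotype. Shares of counts within the mitochondrial mRNAs need no scaling between libraries, though on TPM they also depend on the effective length of each gene.

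As a share of all counts, the 37 genes together held 1.96, 2.12 and 2.96% in control cells at 2.8 mM and 1.05, 1.77, 2.06 and 2.04% at 16.7 mM. In knockout cells they held 2.80, 2.03, 2.02, 1.85 and 1.29% at 2.8 mM and 1.94, 1.80, 1.58, 1.74 and 1.81% at 16.7 mM. The groups overlap, with control replicate 1 at 16.7 mM lowest and control replicate 3 at 2.8 mM highest. Group means were 2.35 ± 0.539% and 1.73 ± 0.470% (SD) in control cells at 2.8 and 16.7 mM, and 2.00 ± 0.540% and 1.77 ± 0.133% in knockout cells. Out of counts other than insulin, the means were 2.62% and 2.35% in control cells and 2.14% and 2.47% in knockout cells. The 13 mRNAs held 95.5%, 96.2%, 93.7% and 96.7% of the mitochondrial counts in these 4 groups, in the order control 2.8, control 16.7, knockout 2.8 and knockout 16.7 mM.

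Per transcript length, the levels of the mRNAs differed widely. In mean TPM over the 17 samples, *mt-Co3* stood highest at 5653, followed by *mt-Atp6* at 3272, *mt-Co1* at 2823 and *mt-Co2* at 2454. The order below *mt-Co3* differs by group, since in knockout cells *mt-Co1* (3996 TPM) is above *mt-Atp6* (3809.5 TPM) at 2.8 mM and below *mt-Co2* (1543 and 1695 TPM) at 16.7 mM. The place of *mt-Co1* is also uncertain because its reads can be shared with a nuclear copy, *Gm29216* (mean counts of 366801 and 83785). *mt-Cytb* had a mean level of 1521 TPM, *mt-Nd1* of 1277 TPM and *mt-Atp8* of 839.6 TPM. The other complex I mRNAs had mean levels of 435 TPM (*mt-Nd4*), 409 TPM (*mt-Nd2*), 341 TPM (*mt-Nd6*), 320 TPM (*mt-Nd5*), 240 TPM (*mt-Nd4l*) and 222 TPM (*mt-Nd3*). For the rRNAs, TPM was 397 for *mt-Rnr2* and 89.1 for *mt-Rnr1*, in libraries made from polyA RNA.

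Within the pool of 13 mRNAs, a comparison that needs no scaling between libraries, complex I mRNAs together took more of the counts at 16.7 mM and *mt-Co1* took less. Shares of one pool are tied, so a smaller share of *mt-Co1* leaves larger shares for others. The members differed: in control cells *mt-Nd1* averaged 5.15% and 8.34% at 2.8 and 16.7 mM, and *mt-Nd5* 3.98% and 4.22%. The 7 complex I mRNAs held 15.80, 14.30 and 15.96% of the pool in control cells at 2.8 mM and 21.06, 22.41, 23.44 and 19.25% at 16.7 mM. In knockout cells they held 16.04, 14.96, 14.24, 14.26 and 23.53% at 2.8 mM and 21.80, 22.80, 22.05, 20.23 and 28.26% at 16.7 mM. The control samples do not overlap between concentrations, and the knockout samples do through replicate 5 at 2.8 mM, whose summed share is like that at 16.7 mM. In that library *mt-Nd1* (10.6%), *mt-Nd2* (4.72%), *mt-Nd4* (3.88%) and *mt-Nd4l* (0.214%) were above the other knockout samples at 2.8 mM. Its *mt-Nd3* (0.211%), *mt-Nd5* (3.36%) and *mt-Nd6* (0.576%) lay within their range. *mt-Cytb* held 9.78, 8.68 and 10.9% and 12.8, 13.6, 12.9 and 12.3% in control cells at 2.8 and 16.7 mM, and 8.13, 6.88, 8.32, 8.63 and 10.0% and 13.6, 13.1, 13.7, 12.3 and 12.5% in knockout cells. Every sample at 16.7 mM is above every sample at 2.8 mM for this gene. *mt-Co1* held 31.3, 33.6 and 29.5% and 21.6, 21.5, 21.5 and 27.6% in control cells at 2.8 and 16.7 mM, and 31.7, 39.0, 32.6, 34.5 and 29.1% and 21.0, 20.9, 20.4, 25.9 and 16.6% in knockout cells. Within each genotype, every sample at 16.7 mM is below every sample at 2.8 mM. As shares of TPM, *mt-Cytb* averaged 7.19% and 9.32% in control cells and 6.23% and 9.25% in knockout cells at 2.8 and 16.7 mM, and *mt-Co1* averaged 15.95% and 11.56%, and 17.05% and 10.28%. The 3 complex IV mRNAs together averaged 64.3 ± 3.03% and 54.2 ± 3.27% (SD) in control cells and 64.4 ± 4.11% and 52.3 ± 3.42% in knockout cells at 2.8 and 16.7 mM. The ATP synthase pair averaged 10.6%, 11.4%, 10.6% and 11.6% in control 2.8, control 16.7, knockout 2.8 and knockout 16.7 mM. These shares are a description and were not tested.

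**Figure D1:**
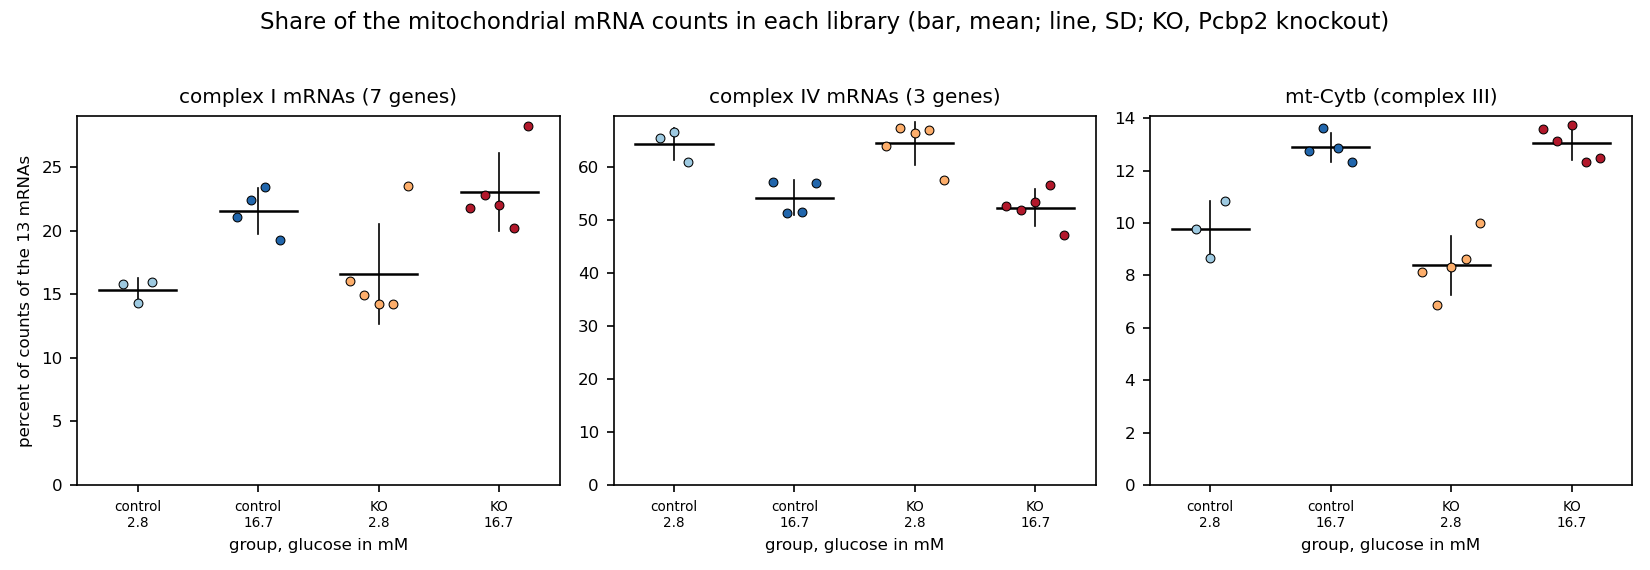
Percent of the summed counts of the 13 mitochondrial mRNAs (vertical axes) held by complex I mRNAs, complex IV mRNAs and mt-Cytb, with 1 point per library, grouped by genotype and glucose in mM (bar, mean; line, SD). mt-Cytb lies higher at 16.7 mM in every library, and knockout replicate 5 at 2.8 mM holds 23.5% in complex I mRNAs.

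Complex I, the NADH dehydrogenase that passes electrons from NADH to ubiquinone and pumps protons, takes 7 subunits from the mitochondrial genome. Glucose raised all 7 mRNAs in knockout cells on the TMM scale, with a median log2 fold change of 0.92 beside 0.01 over all genes, of which 13.4% were called higher. In control cells 1 of 7 was called, with a median of 0.42 beside 0.04 over all genes, of which 7.15% were called higher. With the replicate block, *mt-Nd1* (0.64, edgeR adjusted p = 0.0127) and *mt-Nd2* (0.72, 0.0138) were called higher as well in control cells. In that fit 10.4% of all genes were called higher. With limma on log2(TPM + 1), *mt-Nd1*, *mt-Nd2*, *mt-Nd3*, *mt-Nd5* and *mt-Nd6* turn to between -0.25 and -0.06 in knockout cells, beside the all-gene median of -0.33 there. Scaled to total counts, 6 of the 7 lose the call, and relative to the all-gene median their log2 fold changes run from 0.75 for *mt-Nd6* to 1.04 for *mt-Nd4*.

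*mt-Nd4l* encodes a small membrane subunit and shares a transcript with *mt-Nd4*. It stood at 24.7, 30.2 and 36.0 CPM in control cells at 2.8 mM and at 46.2, 57.7, 59.9 and 38.0 CPM at 16.7 mM. Knockout samples had 38.5, 20.2, 21.4, 18.7 and 20.7 CPM at 2.8 mM and 50.4, 48.5, 49.5, 40.2 and 70.2 CPM at 16.7 mM. All samples at 16.7 mM are above those at 2.8 mM of the same genotype, with knockout replicate 1 high at 2.8 mM and knockout replicate 5 high at 16.7 mM. The log2 fold change with glucose was 0.74 ± 0.25 in control cells (edgeR adjusted p = 0.0498, higher in 4 of 4 samples) and 1.11 ± 0.20 in knockout cells (adjusted p = 0.0005, higher in 5 of 5). The interaction was 0.38 ± 0.31 (edgeR adjusted p = 1.000). The call in control cells is at the threshold, and on log2(TPM + 1) the value turns to -0.17, beside an all-gene median of -0.24. On that scale the value in knockout cells is 0.08 and is not called (limma adjusted p = 0.753), beside an all-gene median of -0.33. Relative to these medians the values are 0.07 in control cells and 0.40 in knockout cells. The call in control cells is lost on leaving out any control replicate at 2.8 mM (adjusted p = 0.198, 0.142 and 0.0528 without replicates 1, 2 and 3) or control replicate 1, 2 or 3 at 16.7 mM (0.0675, 0.12 and 0.125). Leaving out a knockout library also ends it, for reasons that were not tested, for replicates 2, 3 and 4 at 2.8 mM (0.0532, 0.059 and 0.0515) and replicates 1, 2 and 3 at 16.7 mM (0.061, 0.0593 and 0.0602).

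*mt-Nd4*, a proton-pumping subunit, stood at 585, 607 and 894 CPM in control cells at 2.8 mM and at 613, 1029.8, 1268 and 803 CPM at 16.7 mM. The knockout values were 697, 439.7, 389, 379.6 and 374 CPM at 2.8 mM and 1077, 999.8, 865, 737 and 1047 CPM at 16.7 mM. Control samples overlap, and knockout samples do not, although replicate 1 at 2.8 mM comes near the lowest sample at 16.7 mM. With glucose, its log2 fold change was 0.42 ± 0.25 in control cells (edgeR adjusted p = 0.299, 3 of 4 samples above the mean at 2.8 mM) and 1.05 ± 0.21 in knockout cells (adjusted p = 0.00108, 5 of 5). The interaction was 0.63 ± 0.33 (edgeR adjusted p = 1.000). The open reading frames of *mt-Nd4l* and *mt-Nd4* overlap, so their reads come from one RNA, and the stretch is shown because it ties the pair of genes together. It is chrM:10155-10185 on the forward strand of GRCm39, and capitals mark the 7 bases in both genes, with the start codon of *mt-Nd4* first.
mt-Nd4l and mt-Nd4: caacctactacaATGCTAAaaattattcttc
The log2 ratio of *mt-Nd4l* to *mt-Nd4* counts averaged -4.51 and -4.17 in control cells at 2.8 and 16.7 mM, and -4.26 and -4.20 in knockout cells.

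*mt-Nd1*, the subunit next to the ubiquinone site, stood at 916, 881 and 1287 CPM in control cells at 2.8 mM and at 1048, 1877, 1982 and 1555 CPM at 16.7 mM. In knockout cells it stood at 1359, 1038, 779.6, 852 and 1021 CPM at 2.8 mM and at 2098, 1808, 1427, 1449.7 and 1846 CPM at 16.7 mM. Control replicate 1 at 16.7 mM falls among the samples at 2.8 mM, and knockout samples do not overlap. Between 2.8 and 16.7 mM, the log2 fold change was 0.65 ± 0.23 in control cells (edgeR adjusted p = 0.0637, 4 of 4 samples) and 0.77 ± 0.19 in knockout cells (adjusted p = 0.00484, 5 of 5). The interaction was 0.12 ± 0.30 (edgeR adjusted p = 1.000). In control cells it passes with the replicate block (0.64, edgeR adjusted p = 0.0127), with DESeq2 (0.65, adjusted p = 0.0345), and without control replicate 3 at 2.8 mM (adjusted p = 0.0421) or control replicate 1 at 16.7 mM (0.0228). With total counts it is 0.27 in control cells (edgeR adjusted p = 0.464), and on log2(TPM + 1) it turns to -0.19, beside all-gene medians of -0.35 and -0.24.

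*mt-Nd2*, another membrane subunit, stood at 305, 263 and 483 CPM in control cells at 2.8 mM and at 379, 619, 739.8 and 455 CPM at 16.7 mM. Knockout samples had 512, 287, 290.5, 245 and 455 CPM at 2.8 mM and 712, 674, 572, 466 and 971 CPM at 16.7 mM. Both genotypes overlap between concentrations, with knockout replicate 5 highest at 16.7 mM. The log2 fold change with glucose was 0.65 ± 0.30 in control cells (edgeR adjusted p = 0.167, 4 of 4 samples) and 0.92 ± 0.25 in knockout cells (adjusted p = 0.00916, 5 of 5). With the replicate block the value in control cells was 0.72 (edgeR adjusted p = 0.0138), which passes. The interaction was 0.28 ± 0.39 (edgeR adjusted p = 1.000).

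*mt-Nd5*, the largest subunit of the proton-pumping arm, stood at 732, 692 and 947 CPM in control cells at 2.8 mM and at 603, 852, 1065 and 714 CPM at 16.7 mM. The knockout values were 822, 462, 508, 467 and 324 CPM at 2.8 mM and 997, 928, 898, 732 and 1008 CPM at 16.7 mM. Control samples are mixed across concentrations, and in knockout cells replicate 1 at 2.8 mM is above the lowest sample at 16.7 mM. With glucose, its log2 fold change was 0.03 ± 0.25 in control cells (edgeR adjusted p = 0.953, 2 of 4 samples) and 0.82 ± 0.21 in knockout cells (adjusted p = 0.00553, 5 of 5). Its interaction, 0.79 ± 0.32, was the largest among the 13 mRNAs, and did not pass (edgeR adjusted p = 1.000).

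*mt-Nd3*, a short subunit, stood at 28.3, 34.4 and 57.5 CPM in control cells at 2.8 mM and at 31.8, 64.7, 61.7 and 40.7 CPM at 16.7 mM. In knockout cells it stood at 56.0, 32.7, 31.3, 20.7 and 20.4 CPM at 2.8 mM and at 68.8, 59.8, 57.0, 42.8 and 78.1 CPM at 16.7 mM. The concentrations overlap in both genotypes, in knockout cells through replicate 1 at 2.8 mM. Between 2.8 and 16.7 mM, the log2 fold change was 0.31 ± 0.34 in control cells (edgeR adjusted p = 0.596, 3 of 4 samples) and 0.93 ± 0.28 in knockout cells (adjusted p = 0.0172, 5 of 5), with an interaction of 0.62 ± 0.43 (adjusted p = 1.000).

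*mt-Nd6* is the only mRNA gene on the reverse strand, and its last bases overlap those of *mt-Nd5*. Since the sources used here do not say that reads were counted by strand, reads from RNA opposite *mt-Nd6* cannot be told apart from its own. It stood at 98.4, 124 and 178 CPM in control cells at 2.8 mM and at 91.2, 203, 226 and 149.8 CPM at 16.7 mM. Knockout samples had 151, 91.1, 97.2, 81.7 and 55.6 CPM at 2.8 mM and 186, 176, 156, 137 and 159.6 CPM at 16.7 mM. The concentrations overlap in both genotypes. The log2 fold change with glucose was 0.33 ± 0.30 in control cells (edgeR adjusted p = 0.519, 3 of 4 samples) and 0.77 ± 0.25 in knockout cells (adjusted p = 0.0251, 5 of 5), with an interaction of 0.45 ± 0.39 (adjusted p = 1.000). The call in knockout cells is lost without knockout replicate 4 or 5 at 2.8 mM (edgeR adjusted p = 0.0587 and 0.0609) or replicate 1 or 2 at 16.7 mM (0.0577 and 0.0516).

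Complex III moves electrons from ubiquinol to cytochrome c, and *mt-Cytb*, its cytochrome b, is the only subunit of it encoded in mitochondria. It stood at 1664, 1597 and 2639 CPM in control cells at 2.8 mM and at 1705, 2863, 2963 and 2402 CPM at 16.7 mM. The knockout values were 1842, 1091, 1236, 1249 and 966 CPM at 2.8 mM and 3239.5, 2703, 2508, 2195 and 2286 CPM at 16.7 mM. Control samples overlap and knockout samples do not. With glucose, its log2 fold change was 0.34 ± 0.24 in control cells (edgeR adjusted p = 0.389, 3 of 4 samples) and 1.02 ± 0.20 in knockout cells (adjusted p = 0.000928, 5 of 5). The interaction was 0.68 ± 0.31 (edgeR adjusted p = 1.000). Scaled to total counts, the value in knockout cells is 0.99 above the all-gene median and the call is lost.

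**Figure D2:**
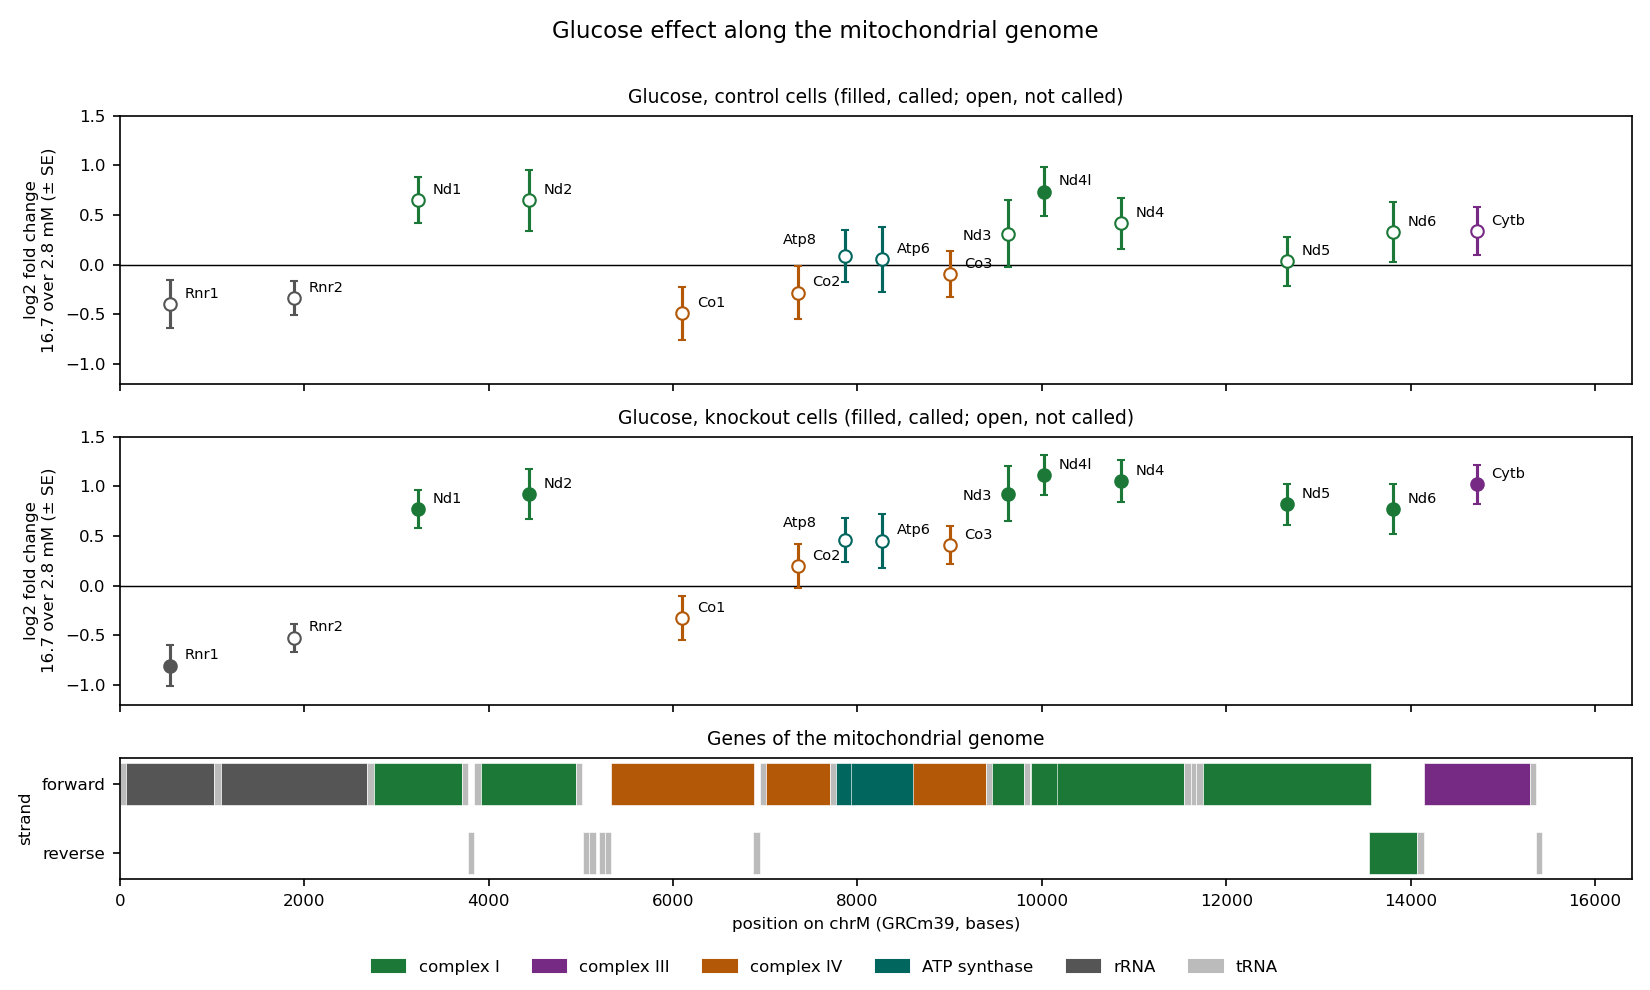
Log2 fold change (± SE, vertical axes) of 16.7 over 2.8 mM glucose for the 13 mRNAs and 2 rRNAs at their position in bases on the mitochondrial genome, in control cells (top) and knockout cells (middle), on the TMM scale, with the genes of both strands below. Filled points are called, and log2 fold changes run from -0.80 at mt-Rnr1 to 1.11 at mt-Nd4l in knockout cells. On log2(TPM + 1) most of these genes lie below 0, beside all-gene medians of -0.24 in control cells and -0.33 in knockout cells.

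Complex IV, cytochrome c oxidase, reduces oxygen to water and takes its 3 catalytic core subunits from the mitochondrial genome. None of the 3 mRNAs passed edgeR's test with glucose in control cells (0 with an unadjusted p under 0.05) or knockout cells (1). DESeq2 called 0 of them too, beside 3921 of 22784 genes in control cells and 5892 in knockout cells. With limma on log2(TPM + 1), where the all-gene medians are -0.24 and -0.33, all 3 are called lower in control cells (*mt-Co1* -1.32, *mt-Co2* -1.13 and *mt-Co3* -0.93), and *mt-Co1* (-1.31) and *mt-Co2* (-0.77) in knockout cells. *mt-Co1* encodes the subunit that holds the oxygen-binding heme. It stood at 5323, 6185 and 7184 CPM in control cells at 2.8 mM and at 2887, 4520.5, 4959 and 5389 CPM at 16.7 mM. In knockout cells it stood at 7183, 6174, 4853, 4996 and 2812 CPM at 2.8 mM and at 5003, 4309.7, 3720.5, 4620.5 and 3052 CPM at 16.7 mM. Both genotypes overlap, and knockout replicate 5 is low at each concentration. Between 2.8 and 16.7 mM, the log2 fold change was -0.49 ± 0.27 in control cells (edgeR adjusted p = 0.236, 0 of 4 samples above the mean at 2.8 mM) and -0.33 ± 0.22 in knockout cells (adjusted p = 0.292, 0 of 5), with an interaction of 0.16 ± 0.35 (adjusted p = 1.000). With the replicate block the value in control cells was -0.62 and passed (edgeR adjusted p = 0.0154). Scaled to total counts it passes in both genotypes, at -0.50 and -0.35 relative to the all-gene median.

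*mt-Co3*, another core subunit, stood at 4322, 4464 and 5499.6 CPM in control cells at 2.8 mM and at 3558, 4676, 5088 and 4541 CPM at 16.7 mM. Knockout samples had 5205, 3243, 3582, 3507 and 2029 CPM at 2.8 mM and 5706, 4715, 4519, 4271 and 4099 CPM at 16.7 mM. The groups overlap, with knockout replicate 1 high and replicate 5 low at 2.8 mM. The log2 fold change with glucose was -0.09 ± 0.23 in control cells (edgeR adjusted p = 0.843, 1 of 4 samples) and 0.41 ± 0.19 in knockout cells (adjusted p = 0.121, 5 of 5), with an interaction of 0.50. Without knockout replicate 1 at 2.8 mM it passes in knockout cells (0.59, edgeR adjusted p = 0.0191). *mt-Co2*, which binds cytochrome c, averaged 1739 ± 337 and 1430.3 ± 309 CPM (SD) in control cells at 2.8 and 16.7 mM, and 1331 ± 501 and 1524 ± 222 CPM in knockout cells. Its log2 fold change with glucose was -0.28 ± 0.27 in control cells (edgeR adjusted p = 0.532, 1 of 4 samples) and 0.20 ± 0.22 in knockout cells (adjusted p = 0.563, 4 of 5), and limma on log2(TPM + 1) gives -0.77 in knockout cells, beside an all-gene median of -0.33.

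The reads of *mt-Co1* and *mt-Co3* can be shared with copies of mitochondrial DNA in the nuclear genome. 16 annotated nuclear copies matched a mitochondrial gene over at least 90% of their length at 90% identity or more, and 2 of them had mean counts over 100. *Gm29216* on chromosome 1, a pseudogene of 492 bases that copies *mt-Co1*, had a mean count of 83785. *Gm28437*, which matches *mt-Co3* without a mismatch over 783 bases at chr1:24652270-24653052, had a mean count of 4369, so how counts were split between these pairs is uncertain. *Gm28437* was called in no comparison, and higher with glucose in control cells only without control replicate 3 at 2.8 mM (2.03, edgeR adjusted p = 0.0453). The stretch where *Gm29216* differs most from *mt-Co1* is shown because, within the copy, only reads across it can separate the pair. It is chrM:6381-6440 on the forward strand and chr1:24655219-24655278 on the reverse strand of GRCm39, with the bases that differ in capitals, and the 479 bases of *Gm29216* after the last of the 6 differences, at base 13, are identical.
mt-Co1: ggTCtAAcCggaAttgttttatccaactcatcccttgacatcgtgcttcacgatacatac
Gm29216: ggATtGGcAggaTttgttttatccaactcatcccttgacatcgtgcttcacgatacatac
The last of them is A6393T, with positions counted along the mitochondrial genome, the mitochondrial base first and the base of the copy second.

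*Gm29216* stood at 1552, 1884 and 1373 CPM in control cells at 2.8 mM and at 956, 908, 809.9 and 826 CPM at 16.7 mM. The knockout values were 1575, 1565, 1429.7, 1354 and 704 CPM at 2.8 mM and 786, 807, 804, 898 and 554 CPM at 16.7 mM. Control samples do not overlap, and in knockout cells only replicate 5 at 2.8 mM falls among the samples at 16.7 mM. It fell with glucose by log2 fold changes of -0.87 ± 0.22 in control cells (edgeR adjusted p = 0.0128, lower in 4 of 4 samples) and -0.78 ± 0.19 in knockout cells (adjusted p = 0.00374, lower in 5 of 5). The call in control cells is lost without control replicate 2 at 2.8 mM (-0.74, edgeR adjusted p = 0.0782). It took 20.7% of the counts of the pair on average in control cells at 2.8 mM and 17.2% at 16.7 mM, and 20.5% and 15.7% in knockout cells. With the counts of all 16 copies added to the mitochondrial genes they match, a choice made after seeing the data, *mt-Co1* had log2 fold changes with glucose of -0.56 in control cells (edgeR adjusted p = 0.139) and -0.41 in knockout cells (0.15). Of the 10 pseudogenes listed as possible nuclear copies, 6 were tested. Besides *Gm29216*, the only one called was *Gm10925*, higher with glucose in control cells and lower in knockout cells and between genotypes at 16.7 mM, and its counts came mostly from control replicate 1 at 16.7 mM (16.8 CPM), with the other 16 samples at 1.69 CPM or less.

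Complex V, ATP synthase, makes ATP from the proton gradient and takes 2 subunits of its membrane part from the mitochondrial genome. Neither mRNA passed edgeR's test with glucose. *mt-Atp6*, which forms the proton path, averaged 2083 ± 742 and 2163 ± 713 CPM (SD) in control cells at 2.8 and 16.7 mM, and 1631 ± 648 and 2233 ± 399.9 CPM in knockout cells. Its log2 fold change was 0.05 ± 0.33 in control cells (edgeR adjusted p = 0.940, 3 of 4 samples) and 0.45 ± 0.27 in knockout cells (adjusted p = 0.233, 5 of 5). *mt-Atp8*, a small subunit beside it, averaged 68.3 ± 17.2 and 72.5 ± 16.5 CPM in control cells and 53.2 ± 18.8 and 73.2 ± 7.42 CPM in knockout cells. Its log2 fold change was 0.09 ± 0.26 in control cells (edgeR adjusted p = 0.875, 3 of 4) and 0.46 ± 0.22 in knockout cells (adjusted p = 0.123, 5 of 5), and without knockout replicate 1 at 2.8 mM it passes there (0.63, adjusted p = 0.0369). The genes lie on one mRNA, and their reading frames share 43 bases, in capitals below, at chrM:7915-7981 on the forward strand of GRCm39.
mt-Atp8 and mt-Atp6: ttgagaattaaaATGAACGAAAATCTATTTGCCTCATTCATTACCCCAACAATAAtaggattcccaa
The stretch is shown because reads across it fit both genes. The log2 ratio of *mt-Atp8* to *mt-Atp6* counts averaged -4.91 and -4.86 in control cells at 2.8 and 16.7 mM, and -4.92 and -4.92 in knockout cells, with single samples from -5.41 to -4.55.

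**Figure D3:**
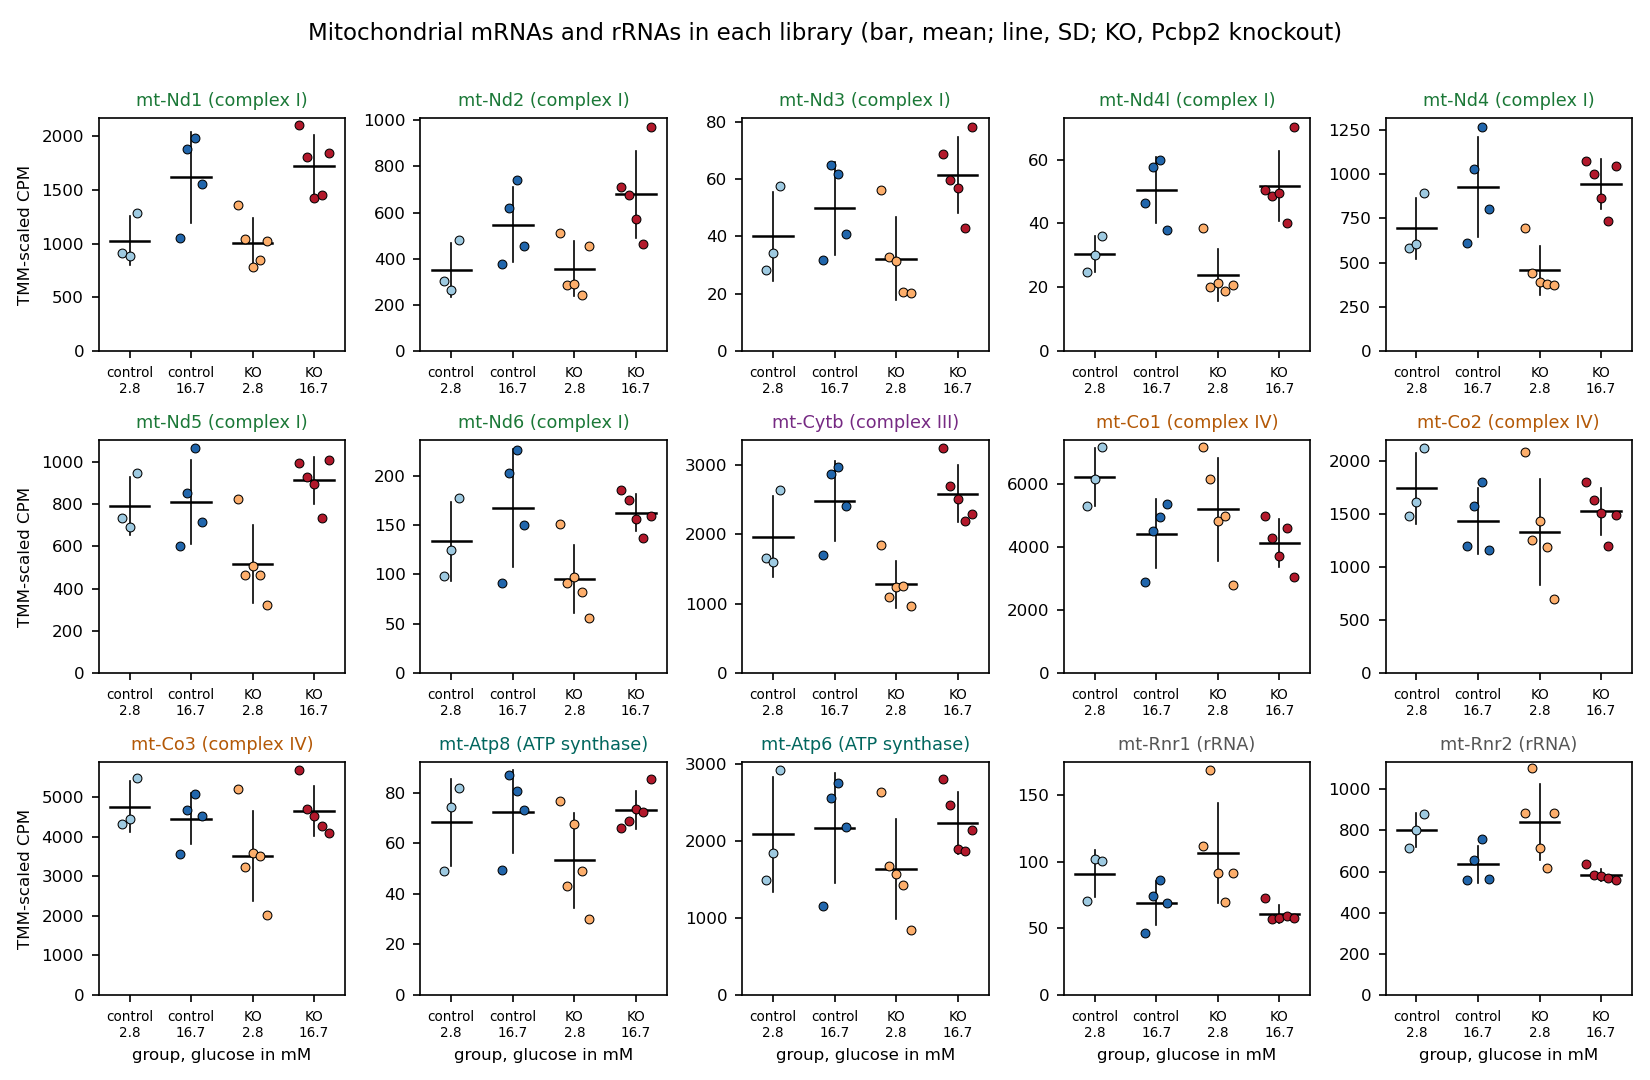
TMM-scaled CPM (vertical axes, from 0) of the 13 mitochondrial mRNAs and 2 rRNAs, with 1 point per library, grouped by genotype and glucose in mM (bar, mean; line, SD). In knockout cells all libraries at 16.7 mM lie above those at 2.8 mM for mt-Nd1, mt-Nd4l, mt-Nd4 and mt-Cytb on this scale, and mt-Nd4l and mt-Nd4 share a transcript. The share of all genes that separate in this way was not counted, and 13.4% of all genes were called higher there. On log2(TPM + 1), limma gives a log2 fold change of -0.25 for mt-Nd1 there, beside an all-gene median of -0.33.

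Some mitochondrial mRNAs end before their stop codon is complete, and the poly(A) tail supplies the missing bases, which ties their translation to the tail by which these libraries were made. The ends of *mt-Co3* (chrM:9367-9390), *mt-Nd4* (chrM:11521-11544) and *mt-Cytb* (chrM:15265-15288) on the forward strand of GRCm39 are shown for this reason, with the single base of the incomplete codon in capitals.
mt-Co3 end: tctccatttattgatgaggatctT
mt-Nd4 end: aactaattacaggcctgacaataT
mt-Cytb end: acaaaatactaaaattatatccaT
Of these 3, *mt-Nd4* and *mt-Cytb* rose with glucose in knockout cells and *mt-Co3* did not pass, with log2 fold changes of 1.05, 1.02 and 0.41. On log2(TPM + 1) the values are 0.05, 0.01 and -0.58, beside an all-gene median of -0.33.

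Both rRNA genes had log2 fold changes with glucose below 0 in each genotype. On the TMM scale 1 of them was called, in knockout cells, where 10.4% of all genes were called lower. Total counts and limma on log2(TPM + 1) call both lower in each genotype. Of 22784 genes, total counts call 4055 lower in control cells and 6369 in knockout cells, and limma on log2(TPM + 1) calls 6725 and 8486. Relative to the all-gene median, total counts give -0.43 and -0.82 for *mt-Rnr1* and -0.38 and -0.54 for *mt-Rnr2* in control and knockout cells, and log2(TPM + 1), not set against its all-gene medians of -0.24 and -0.33, gives -1.21 and -1.76, and -1.14 and -1.52. *mt-Rnr1*, the RNA of the small ribosomal subunit, stood at 70.8, 102 and 100.2 CPM in control cells at 2.8 mM and at 46.8, 74.4, 86.3 and 68.8 CPM at 16.7 mM. In knockout cells it stood at 112, 168, 91.6, 69.6 and 91.5 CPM at 2.8 mM and at 72.8, 57.0, 57.7, 59.6 and 57.9 CPM at 16.7 mM. Knockout replicate 2 is highest at 2.8 mM, and the concentrations overlap in both genotypes. With glucose, its log2 fold change was -0.40 ± 0.24 in control cells (edgeR adjusted p = 0.299, 0 of 4 samples above the mean at 2.8 mM) and -0.80 ± 0.20 in knockout cells (adjusted p = 0.00579, 0 of 5), which is called. The interaction was -0.41 ± 0.32 (edgeR adjusted p = 1.000). Without knockout replicate 2 at 2.8 mM, the log2 fold change in knockout cells is -0.58 (edgeR adjusted p = 0.0189), under the fold threshold. *mt-Rnr2*, the RNA of the large subunit, stood at 717, 804 and 880.4 CPM in control cells at 2.8 mM and at 561, 654, 757 and 566 CPM at 16.7 mM. Knockout samples had 885, 1103, 717, 615 and 886 CPM at 2.8 mM and 634, 582, 579, 569 and 559 CPM at 16.7 mM. Samples at 16.7 mM lie in a narrow band in knockout cells, and the concentrations overlap in both genotypes. Between 2.8 and 16.7 mM, the log2 fold change was -0.34 ± 0.17 in control cells (edgeR adjusted p = 0.202, 0 of 4 samples) and -0.52 ± 0.14 in knockout cells (adjusted p = 0.00895, 0 of 5), where it is under the fold threshold. Without knockout replicate 4 at 2.8 mM it is called (-0.62, edgeR adjusted p = 0.00273). The rRNAs held 4.21, 7.42, 5.14, 4.51 and 9.18% of mitochondrial counts in knockout cells at 2.8 mM, where the mean was 6.09%, against means of 3.18% in knockout cells at 16.7 mM and 4.32% and 3.59% in control cells at 2.8 and 16.7 mM. These RNAs carry only short tails, so polyA libraries do not measure their amount in the cell.

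The tRNAs, which bring amino acids to the mitochondrial ribosome, are too short for these libraries to count well, with effective lengths of 5.2 to 13.2 bases and mean counts of 7.71 to 1314 among the 14 tested. Their log2 fold changes with glucose ran from -0.89 to 0.79 in control cells (lowest edgeR adjusted p = 0.199) and from -0.76 to 1.08 in knockout cells (lowest adjusted p = 0.043). Between genotypes they ran from -0.96 to 0.92 at 2.8 mM (lowest edgeR adjusted p = 0.452) and from -0.77 to 0.91 at 16.7 mM (0.609). The tRNA with the highest mean count, *mt-Ts1* for serine, averaged 22.2 ± 8.70 and 16.8 ± 2.75 CPM (SD) in control cells at 2.8 and 16.7 mM, and 18.8 ± 7.37 and 14.2 ± 4.62 CPM in knockout cells. Its log2 fold changes with glucose were -0.41 ± 0.33 in control cells (edgeR adjusted p = 0.460) and -0.40 ± 0.28 in knockout cells (adjusted p = 0.304). *mt-Tp*, for proline, averaged 5.68 ± 2.06 and 5.32 ± 1.74 CPM in control cells and 3.46 ± 1.74 and 3.72 ± 0.752 CPM in knockout cells, with log2 fold changes of -0.09 ± 0.40 and 0.11 ± 0.33. *mt-Tq*, for glutamine, averaged 5.29 ± 2.64 and 3.07 ± 0.791 CPM in control cells and 4.30 ± 1.61 and 2.53 ± 1.04 CPM in knockout cells, with log2 fold changes of -0.78 ± 0.40 (edgeR adjusted p = 0.200) and -0.76 ± 0.33 (adjusted p = 0.0950). *mt-Tq* would be called lower in knockout cells without knockout replicate 5 at 2.8 mM (-0.91, edgeR adjusted p = 0.0497) or replicate 4 at 16.7 mM (-1.02, 0.0284).

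These 3 lie on the reverse strand, opposite RNA that reads of unknown strand could come from. *mt-Ts1* is shown because its last 3 bases, in capitals, are also the end of *mt-Co1* on the other strand, at chrM:6870-6938 on the reverse strand of GRCm39.
mt-Ts1: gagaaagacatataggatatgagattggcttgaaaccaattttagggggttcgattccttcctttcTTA
All 8 reverse-strand tRNAs were tested, and 7 of them had a log2 fold change below 0 with glucose in control cells and 6 in knockout cells. Among all 14 tRNAs tested on both strands, 8 were below 0 in each genotype, so most of those on the forward strand were not. The all-gene medians were 0.04 and 0.01. The only tRNA called in the main fit (TMM, all 17 samples, no replicate block) was *mt-Te*, for glutamate, named after its values were seen. It lies on the same strand between *mt-Nd6* and *mt-Cytb*. It stood at 0.961, 1.28 and 0.963 CPM in control cells at 2.8 mM and at 1.29, 1.73, 1.21 and 0.983 CPM at 16.7 mM. The knockout values were 1.05, 0.305, 1.19, 0.399 and 0.400 CPM at 2.8 mM and 0.633, 1.35, 2.17, 1.27 and 1.64 CPM at 16.7 mM. The groups overlap, and counts were 23 to 141 per sample. The log2 fold change in knockout cells was 1.08 ± 0.39 (edgeR adjusted p = 0.0430, 4 of 5 samples), and 0.29 ± 0.46 in control cells (adjusted p = 0.741), with an interaction of 0.79 ± 0.60. With total counts *mt-Te* is not called in knockout cells (0.60, edgeR adjusted p = 0.245), and *mt-Tq* (-1.22, 0.0107) and *mt-Ts1* (-0.88, 0.0203) are called lower, beside an all-gene median of -0.47. *mt-Te* is also not called there without the filter, with length-scaled TPM counts or without 3 samples at 16.7 mM. In each of these settings the 8 genes called higher were mRNAs. Leaving out any of 11 libraries ends the call of *mt-Te*. These are control replicates 1, 2 and 3 at 2.8 mM (edgeR adjusted p = 0.0526, 0.0508 and 0.0517), control replicate 1 at 16.7 mM (0.05), knockout replicates 2, 4 and 5 at 2.8 mM (0.0976, 0.0993 and 0.0946) and knockout replicates 2, 3, 4 and 5 at 16.7 mM (0.0645, 0.125, 0.0524 and 0.0739).

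The comparison of genotypes asks whether loss of PCBP2 alters these RNAs at a given glucose concentration. At 2.8 mM the 13 mRNAs had a median log2 fold change of -0.36 between knockout and control cells, beside 0.03 over all genes, and none was called. That median ran from -0.61 to -0.21 when single libraries were left out. With the replicate block it was -0.15, but knockout replicates 4 and 5 at 2.8 mM have no control partner in that fit and do not weigh on it. Replicate numbers were not taken to pair these groups, so the value is not a check on the median. The 3 with an unadjusted p under 0.05 were *mt-Cytb* at -0.62 ± 0.23 (edgeR adjusted p = 0.210, 0 of 5 knockout samples above the control mean), *mt-Nd5* at -0.61 ± 0.23 (adjusted p = 0.239, 1 of 5) and *mt-Nd4* at -0.61 ± 0.24 (adjusted p = 0.261, 1 of 5). Knockout replicate 1 is the highest of its group for all 3, and without it *mt-Nd5* passes (-0.84, edgeR adjusted p = 0.0372). Other single libraries left out brought the values as near to 0 as -0.35 for *mt-Cytb*, -0.46 for *mt-Nd5* and -0.39 for *mt-Nd4*. At 16.7 mM the median over the 13 mRNAs was 0.06, beside 0.01 over all genes, and their log2 fold changes ran from -0.10 for *mt-Co1* to 0.31. The rRNAs differed between genotypes by 0.23 and 0.07 at 2.8 mM and by -0.18 and -0.12 at 16.7 mM for *mt-Rnr1* and *mt-Rnr2*. Interaction values of the 13 mRNAs ran from 0.12 for *mt-Nd1* to 0.79 for *mt-Nd5*, all above 0, with a median of 0.45 beside -0.01 over all genes, and none passed. Leaving out single libraries moved that median between 0.24 and 0.67, took *mt-Nd1* down to -0.07 and *mt-Nd2* to -0.02, and moved the median at 16.7 mM between -0.06 and 0.18. The comparisons share samples, so these medians are not independent of one another.

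Nuclear genes that copy, transcribe and process mitochondrial DNA and RNA were compared with glucose in the same fit, in which 7.15% of all genes were called higher and 6.69% lower in control cells, and 13.4% and 10.4% in knockout cells. Of 10 genes for transcription of mitochondrial DNA, 0 rose and 1 fell in each genotype, with median log2 fold changes of -0.19 in control and -0.34 in knockout cells. The gene called in control cells was *Tfam*, which packages and helps transcribe mitochondrial DNA, at -0.63 ± 0.15 (edgeR adjusted p = 0.00978, lower in 4 of 4 samples), and it reached -0.40 ± 0.13 in knockout cells (adjusted p = 0.0224), under the fold threshold. The one in knockout cells was *Mterf1a*, a transcription termination factor, at -0.76 ± 0.25 (adjusted p = 0.0308). The RNA polymerase *Polrmt* had log2 fold changes of 0.07 ± 0.25 and -0.33 ± 0.21, neither called. Of 9 replication genes, 1 rose and 1 fell in control cells and 1 rose and 3 fell in knockout cells (medians -0.49 and -0.53). *Dna2*, a nuclease and helicase, rose by 1.44 and 1.04 (edgeR adjusted p = 0.0277 and 0.0261), *Polg2*, the accessory subunit of the DNA polymerase, fell in control cells (-0.69, adjusted p = 0.0443), and the nuclease *Mgme1* and the helicase *Twnk* fell in knockout cells (-1.08 and -0.97, adjusted p = 0.0176 and 0.000792). Of 7 regulators of mitochondrial biogenesis, 0 rose, and 2 fell in control and 4 in knockout cells (medians -0.50 and -0.66). They include *Nrf1* (-1.08, edgeR adjusted p = 0.00161) and *Gabpb1* (-0.71, 0.0126) in control cells, and *Ppargc1b* (-1.29, 0.0111) and *Gabpb1* (-1.01, 0.000101) in knockout cells. *Ppargc1a* had -0.11 ± 0.47 and -0.51 ± 0.39, neither called.

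Among 11 genes that process mitochondrial RNA, 0 rose and 1 fell in control cells and 2 in knockout cells (median log2 fold changes -0.19 and -0.43), beside 6.69% and 10.4% of all genes called lower and 7.15% and 13.4% higher. They were *Fastkd2* in control cells (-0.66, edgeR adjusted p = 0.0163), and *Trmt10c*, a subunit of mitochondrial RNase P (-1.16, 0.000563), and *Fastkd3* (-0.71, 0.0136) in knockout cells. Of 7 genes for RNA stability and decay, 0 rose and 2 fell in each genotype (medians -0.20 and -0.22), namely the mitochondrial poly(A) polymerase *Mtpap* (-0.79 and -0.76, edgeR adjusted p = 0.0127 and 0.00222) and the helicase *Supv3l1* (-0.65 and -0.89, 0.0140 and 0.000154). *Lrpprc*, which with *Slirp* keeps mitochondrial mRNAs stable, had -0.46 ± 0.15 (edgeR adjusted p = 0.0446, under the fold threshold) and -0.33 ± 0.12 (0.0551), and *Slirp* had -0.04 ± 0.12 and -0.22 ± 0.10. Of 13 translation factors, 0 rose and 1 fell in control cells and 3 in knockout cells (medians -0.18 and -0.11). The membrane insertase *Oxa1l* fell in both (-0.62 and -0.72, edgeR adjusted p = 0.00830 and 0.000262), and *Taco1*, an activator of *mt-Co1* translation, fell in knockout cells (-0.88, 0.000933). Of 19 tRNA synthetases, 1 rose and 4 fell in control cells and 2 rose and 5 fell in knockout cells (medians -0.11 and -0.10). *Sars2* rose (0.71 and 1.10, edgeR adjusted p = 0.0355 and 0.000216), and the largest decreases were of *Wars2* (-1.38 and -1.36, 0.00185 and 0.000117), *Tars2* in control cells (-1.01, 0.00438) and *Mars2* in knockout cells (-1.22, 0.00073).

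The nuclear partners of the same complexes had calls in both directions. Of 75 nuclear subunits of complexes I to V, 4 rose and 10 fell with glucose in control cells and 5 rose and 14 fell in knockout cells, with median log2 fold changes of -0.10 and -0.13. Over all genes tested, 7.15% were called higher and 6.69% lower in control cells, and 13.4% and 10.4% in knockout cells. Nuclear complex I held most of these calls, with 3 of 36 genes higher and 8 lower in control cells and 3 higher and 9 lower in knockout cells (medians -0.23 and -0.25), on the same TMM scale on which its 7 mitochondrial mRNAs rose in knockout cells. *Ndufa1* (1.69 and 1.86, edgeR adjusted p = 0.00856 and 0.000336) rose in both genotypes and *Ndufc2* in knockout cells (1.02, 0.000699). *Ndufb10* fell in both (-0.87 and -1.12, 0.00109 and 7.65e-06), *Ndufa5* in control cells (-0.89, 0.00182) and *Ndufa6* in knockout cells (-1.01, 3.09e-05). Of 4 complex II genes, which has no mitochondrial subunit, 0 were called in control cells and 1 fell in knockout cells, *Sdha* (-0.67, edgeR adjusted p = 0.000251). Of 9 nuclear complex III genes, 0 were called in control cells and 1 fell in knockout cells, *Cyc1* (-0.76, 0.000155). Of 11 nuclear complex IV genes, 1 rose in each genotype, *Ndufa4* (0.84 and 0.94), *Cox4i1* fell in both (-0.65 and -0.68) and *Cox8a* fell in knockout cells (-0.67). Of 15 nuclear ATP synthase genes, *Atp5g2* fell in both (-0.99 and -0.78) and *Atp5g1* rose in knockout cells (0.65). None of the genes on these lists, from transcription to nuclear subunits, was called between genotypes or in the interaction by edgeR, where 0.255% of all genes were called higher and 1.78% lower at 2.8 mM, 0.29% and 1.42% at 16.7 mM, and 0.00439% for the interaction.

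Of 10 genes induced by dissociation of tissue, 4 rose and 3 fell with glucose in control cells (7.15% and 6.69% of all genes) and 4 rose and 4 fell in knockout cells (13.4% and 10.4%). Their summed level was highest in knockout replicate 5, at 1996 CPM at 2.8 mM and 1465 CPM at 16.7 mM, beside 559 to 1277 CPM in the other samples. Replicate 5 at 2.8 mM is also the library with a high share of complex I mRNAs, low *mt-Co1* and an rRNA share of 9.18%, and the part of handling in these values was not tested. Without 3 samples at 16.7 mM (control replicate 4 and knockout replicates 4 and 5), 8 mitochondrial genes rose and 3 fell in knockout cells, beside 3181 higher and 3209 lower of 22352 genes tested. The TMM factors of these 3 samples were 1.01, 0.939 and 0.952, beside 0.752 to 0.860 in the other samples at 16.7 mM.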

How the data were processed

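The authors pseudoaligned read pairs to mouse transcripts with Kallisto and deposited, for each transcript, an estimated count without normalization between samples. The deposited TPM were divided by effective length and scaled by Kallisto to an equal total. The submitters' notes also name edgeR and mm39. Versions are not given in the sources used here.

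Counts were summed per gene and rounded to whole numbers. The 22784 genes kept by edgeR's filter (edgeR 4.0.16, R 4.3.3) were fitted with 4 group means, TMM factors of 0.752 to 1.29 and quasi-likelihood tests of 5 contrasts, adjusted over all genes. The study's batch factor has no levels in the labels and was left out. Code was tested on simulated data. Alternatives used DESeq2 1.42.0 and limma 3.58.1. Replicate numbers were taken to pair control samples across glucose, since deviations of the 3 pairs correlated at 0.198, 0.123 and 0.258, all above a limit of 0.1. Same-numbered pairs between other groups correlated at 0.047 to 0.3545, and pairs with different numbers were not compared. Nuclear copies and sequences came from GENCODE vM39 on GRCm39, which held 141102 of the files' 142376 transcripts, including all 37 mitochondrial ones.

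Named were all mRNAs and rRNAs, the 3 tRNAs with the highest mean count, up to 2 called members with the largest changes in each direction per list, and *Tfam*, *Polrmt*, *Lrpprc*, *Slirp*, *Ppargc1a*, *Pcbp2*, *Ins1* and *Ins2*. Members and lists were chosen with earlier results of these data known.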

Additional observations from a re-analysis of the deposited data

Results flagged for a closer look

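66 sets of group values were tested for a sample far from the rest of its group, and 4 had one, where chance gives about 1 in 20. In knockout cells at 2.8 mM, replicate 1 stood above the other samples for *mt-Nd4l* (38.48 CPM) and *mt-Nd4* (697.1 CPM). In knockout cells at 16.7 mM, replicate 1 was above the others for *mt-Rnr1* (72.85 CPM). Knockout replicate 5 at 2.8 mM held 23.53% of the mRNA pool in complex I mRNAs, above the other samples of its group. Apart from the mitochondrial genes, the response of *Ins1* to glucose differed between genotypes, with an interaction of 2.775 on the log2 scale (edgeR adjusted p = 0.00902). It is the only gene called there, and without control replicate 3 at 2.8 mM or with limma on log2(TPM + 1) no gene is called. DESeq2 called 34 genes for the interaction, the replicate block 17, edgeR without the filter 15 and limma on log2(TPM + 0.1) 3.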

How the results depend on the processing

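Results were recomputed under 12 other settings and 17 fits that each left out a library. Between genotypes and in the interaction, counts of mitochondrial genes called stayed at 0 in all 12. For glucose in control cells, where 1 gene was called, other settings called 3 (total counts), 0 (TMM without mitochondrial and insulin genes, no filter, or length-scaled TPM counts), 2 (DESeq2), 11 (limma, either pseudocount) and 4 (replicate block). Of all genes, 3153 were called in the main fit. In the same order, these settings called 4837, 3143, 3118, 3021, 3921, 6975 and 8902 (TPM + 1 and TPM + 0.1) and 5024. The genes tested were 22784, or 44935 without the filter and 22992 with length-scaled TPM counts. For glucose in knockout cells, where 10 were called, other settings called 8 (total counts), 9 (no filter, or length-scaled TPM counts), 11 (limma, either pseudocount), 11 (without 3 samples at 16.7 mM) and 11 (replicate block). Of all genes, 5431 were called in the main fit. In the same order, these settings called 7851, 5354, 5251, 8831 and 12449 (TPM + 1 and TPM + 0.1), 6390 and 5783. The median of the 13 mRNAs was -0.0881 (total counts), -0.5706 (TPM + 1) and -0.5726 (TPM + 0.1) in control cells, and 0.2947, -0.2159 and -0.2163 in knockout cells. Minus the all-gene median, total counts give 0.258 and 0.7601, TPM + 1 gives -0.3338 and 0.1091 and TPM + 0.1 -0.0176 and 0.4961, against 0.2735 and 0.7608 with TMM. With limma on TPM, all 13 mRNAs were below 0 in control cells and all but *mt-Nd4l*, *mt-Nd4* and *mt-Cytb* in knockout cells. Among genes called on either scale, values at TPM + 1 and TPM + 0.1 turned for *mt-Nd4l* (-0.1702, -0.1709) and *mt-Nd5* (-0.7781, -0.7804) in control cells, and for *mt-Nd1* (-0.2485, -0.2487), *mt-Nd2* (-0.0897, -0.09), *mt-Nd3* (-0.0618, -0.0618), *mt-Nd5* (-0.1463, -0.1465), *mt-Nd6* (-0.2159, -0.2163) and *mt-Co2* (-0.7735, -0.7738) in knockout cells. Minus the all-gene median, only *mt-Nd5* in control cells (-0.5413, -0.2254) and *mt-Co2* in knockout cells (-0.4485, -0.0614) are below 0 among these genes. The mitochondrial share of TPM was 3.1395% and 1.7559% in control cells at 2.8 and 16.7 mM, and 2.7191% and 1.6525% in knockout cells. Out of counts other than insulin it was 2.6153% and 2.3462%, and 2.1391% and 2.4729%. Leaving out a library gave 0 to 1 called and medians of 0.11 to 0.59 (control glucose), 8 to 12 and 0.69 to 1.00 (knockout glucose), 0 to 1 and -0.61 to -0.21 (genotype at 2.8 mM), 0 and -0.0649 to 0.18 (at 16.7 mM), and 0 and 0.24 to 0.67 (interaction). Calls over all genes, with 22510 to 23890 tested, then ran from 1382 to 4480 (control glucose) and 4640 to 5742 (knockout glucose). They ran from 242 to 529 (genotype at 2.8 mM), 213 to 652 (at 16.7 mM) and 0 to 2 (interaction). The shares then ran from 2.04 to 2.54% and 1.62 to 1.95% in control cells and from 1.80 to 2.18% and 1.73 to 1.82% in knockout cells at 2.8 and 16.7 mM. Replicate numbers were not taken to pair the other groups, since not every pair correlated above 0.1. For glucose in knockout cells the block called 9 higher and 2 lower, beside 3197 and 2586 of 22784 genes. It called 0 mitochondrial genes in the rest, beside 725 of all genes between genotypes at 2.8 mM, 848 at 16.7 mM and 17 for the interaction. The nuclear copies added to their genes, a setting chosen after seeing the data, changed no count. The cause of these shifts was not tested. Depth was 47385513 to 82419400 counts.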
